A study of Caenorhabditis elegans with 2 samples.

Results

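Among 66355 candidate binding regions that the authors ranked for the T-box factor TBX-37, 227 had a signal value of at least 80 and were missing from the conservative peak list. They were chosen by these 2 properties, the signal value that the authors' peak caller wrote for each region and the absence of the identical chromosome, start and end from the list. In all, 1050 candidates reached a signal value of 80, and the other 823 are conservative peaks. The members fell into 2 unlike sets. In the first, 179 regions passed the irreproducible discovery rate (IDR) threshold of the lists and were left out all the same. In the second, 48 regions had not passed it. The chromatin came from whole early embryos at 0 hours, collected by egg bleaching, of the Caenorhabditis elegans strain RW12282. This strain carries st12282[tbx-37::TY1::EGFP::3xFLAG] on its chromosome III, a tag inserted at tbx-37 with CRISPR, and the tagged protein was precipitated from sonicated chromatin with an anti-GFP antibody. There is 1 group, with 2 biological replicates, and the possible control experiment that the labels name was not analysed here. All cells of the embryo were pooled, so a region bound in few cells cannot be told apart from one bound weakly in many.

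T-box factors are transcription regulators that bind DNA through a conserved domain, usually at sites built around a GGTGTG core. TBX-37 and its close relative TBX-38 work in the lineage that stems from the ABa cell and are needed there for cells of the anterior pharynx and for the left-right asymmetry of the ASE taste neurons through the microRNA lsy-6. The IDR compares the order of candidates in 2 replicates and estimates how likely each one is to be irreproducible, so a low value marks a candidate that stands high in both. A tandem array is a run of head-to-tail copies of one short unit. Such arrays are common between the genes of nematodes, and their number of copies can differ between strains.

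The sequences at the summits carry the main description of the members that passed. Of the 179, 174 lay in a tandem array, and in 4 of the larger families of arrays most members had units of 25 to 27 bp. For each of these 4, the 3 units at the summit of the strongest member are shown, in RefSeq sequence of WBcel235 (the same assembly as ce11). Capitals mark 2 words, GGTGAA, which 3 of the 4 first units hold, and AGAGAGTAAA, the 10-base word found in more of the members that passed than any other.
27-bp family, chrX:110492-110572, plus strand: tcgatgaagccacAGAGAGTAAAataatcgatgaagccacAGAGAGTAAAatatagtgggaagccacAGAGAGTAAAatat
25-bp family, chrIII:1299897-1299971, plus strand: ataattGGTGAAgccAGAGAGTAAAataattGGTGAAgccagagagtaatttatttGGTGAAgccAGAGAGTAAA
26-bp family with AGGTGAATGG, chrX:11785760-11785837, minus strand: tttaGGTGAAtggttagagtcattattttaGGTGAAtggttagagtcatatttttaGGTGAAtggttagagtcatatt
26-bp family with TGGTGAACGG, chrX:15811073-15811150, plus strand: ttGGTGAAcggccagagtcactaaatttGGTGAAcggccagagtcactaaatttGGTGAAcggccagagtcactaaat
Within each window, 88.9%, 92.0% and 96.2% of bases equalled the base 1 unit further on in the first 3 families, and every base did so in the last. Between families, the units of 27 and 25 bp were 85.2% identical at their best alignment and the units of both 26-bp families 73.1%, while the other 4 pairs lay between 57.7% and 69.2%. The pair of 27 and 25 bp was thus the closest. No identity between unrelated units was measured, so these values do not show which units are related. Frame and strand of each unit were chosen for the fewest differences from the 25-bp unit, which can raise the values of its pairs.

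Arrays with longer or A-rich units show that the members that passed are not copies of a single element. Capitals in the next 4 sequences mark the second unit, and the 172-bp unit is shown once, without capitals.
20-bp family, chrV:16708477-16708536, plus strand: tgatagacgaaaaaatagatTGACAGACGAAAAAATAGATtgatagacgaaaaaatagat
45-bp family, chrIV:3366962-3367096, plus strand: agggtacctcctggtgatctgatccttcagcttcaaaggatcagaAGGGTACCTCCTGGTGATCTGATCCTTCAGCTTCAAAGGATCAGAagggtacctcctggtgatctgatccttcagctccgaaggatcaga
59-bp family, chrIII:10224632-10224808, plus strand: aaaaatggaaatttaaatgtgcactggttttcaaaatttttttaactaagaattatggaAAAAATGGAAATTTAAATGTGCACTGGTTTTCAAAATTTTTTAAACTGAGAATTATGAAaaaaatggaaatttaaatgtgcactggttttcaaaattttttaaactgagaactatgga
79-bp family, chrII:8292426-8292583, plus strand: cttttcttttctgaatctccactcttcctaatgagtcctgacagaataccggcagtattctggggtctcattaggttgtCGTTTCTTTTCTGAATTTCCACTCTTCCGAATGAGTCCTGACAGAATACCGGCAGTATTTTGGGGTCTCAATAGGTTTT
172-bp family, chrX:293359-293530, plus strand: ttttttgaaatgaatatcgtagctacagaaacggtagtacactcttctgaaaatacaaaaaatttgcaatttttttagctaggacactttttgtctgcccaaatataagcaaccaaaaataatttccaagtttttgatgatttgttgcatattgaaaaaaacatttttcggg
For contrast, a member that did not pass is shown around the T-box core nearest to its summit, in capitals. It was chosen for holding this core and no repeated base, so it does not stand for the 48. Only 5 of the 48 (10.4%) held the core within 100 bp of the summit, against 6.04% of all ranked candidates. The member lies upstream of sym-4, and none of its bases is in repeated sequence. The stretch shown also holds the word GGTGAA, left in lower case.
Member near sym-4, chrX:14169849-14169914, plus strand: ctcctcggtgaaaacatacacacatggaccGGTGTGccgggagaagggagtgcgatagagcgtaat

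The strongest candidates of the whole experiment were members. The 22 highest signal values of the ranked list all belonged to regions missing from the conservative list, and members made up 43 of the top 50, 60 of the top 100 and 80 of the top 200. The highest, chrX:15810947-15811201, had a signal value of 4689.8, in the array of 26-bp units with TGGTGAACGG shown above. It was followed by chrX:11785716-11785938 with 3358.2, in the other 26-bp array, and by chrX:293332-293516 with 1596.5, in the 172-bp array. The highest value of a conservative peak was 794.4. Since the signal value chose the members, these levels are a description. The members that passed had a median of 211.1 (80.5 to 4689.8), those that did not pass a median of 84.6 (80.1 to 127.0), and the conservative peaks of at least 80 a median of 124.4.

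**Figure D1:**
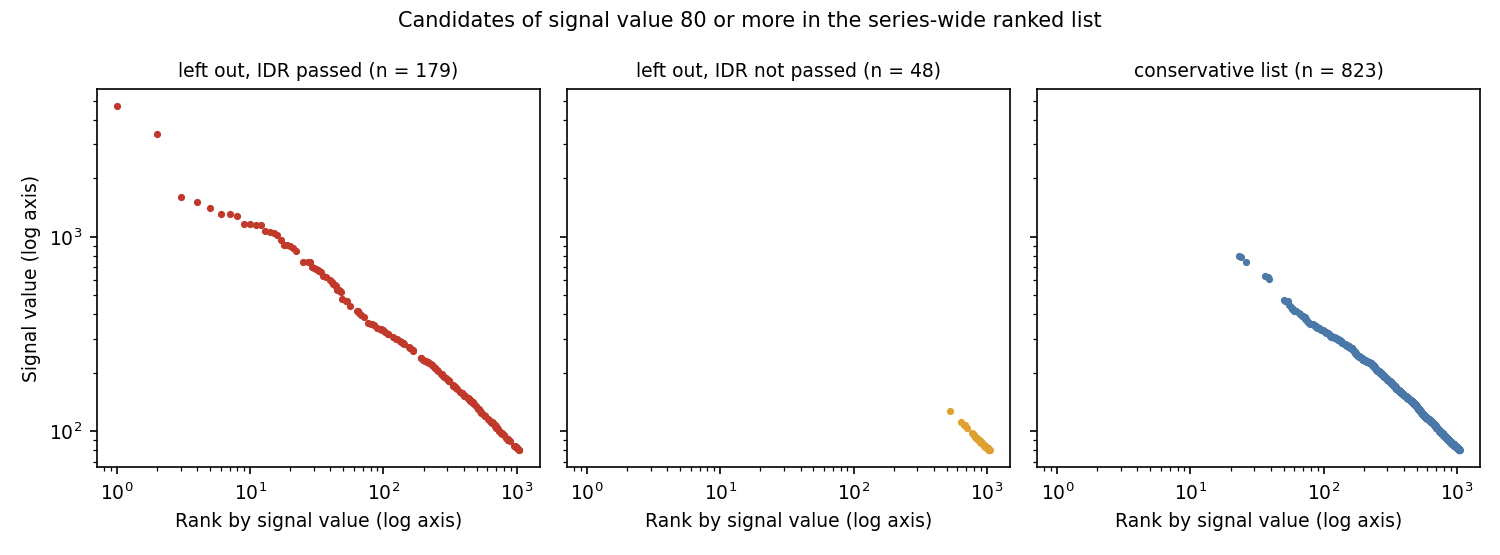
Signal value against rank in the series-wide ranked list, both on log axes, for the 1050 candidates of signal value 80 or more. Each point is 1 region, and the panels hold the 179 left out although their IDR passed (red), the 48 left out whose IDR did not pass (yellow) and the 823 conservative peaks (blue). The red points hold the 22 highest places, the yellow points reach 127.0 at most, and the blue points begin at 794.4.

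By definition the 179 met the same IDR threshold as the listed peaks. The highest IDR among the 179 was 0.00645, that among all conservative peaks was 0.00999, and 79 of the 179 stood at the floor of 1e-05. The median IDR was lower in the 179 (2.5e-05) than in the conservative peaks of at least 80 (0.000346). The 48 that did not pass had IDR values from 0.0101 to 0.813. Over all ranked candidates 1.98% passed the threshold, and 95.4% of those with a signal value of at least 80. The rule used these values, so nothing is read from the counts. In all 205 candidates passed and were missing from the list, of which 26 had a signal value under 80, and 19 of those 26 lay within 10 kb of a member that passed. The deposited text files say that the thresholded lists derive from a further file besides the ranked candidates. That file was not used here, and its part in leaving out these regions was not tested.

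The lists of the separate replicates left out the same 179 regions. None of the 179 overlapped a peak in the thresholded list of replicate 1, of replicate 2 or in the other series-wide list (each 0 of 179, exact 95% interval up to 2.04%). Over all ranked candidates these shares were 0.823%, 1.23% and 1.56%. The nearest thresholded peak of any of the 4 lists lay at least 1787 bp from a passing member, with a median of 39940 bp. In the ranked list of each replicate the same regions stood high: 174 of 179 (97.2%) overlapped a candidate in both lists, and 149 (83.2%) were among the top 1000 candidates of both. These shares were 98.9% and 69.6% in the conservative peaks of at least 80, and 27.3% and 1.11% over all ranked candidates. By its own IDR the overlapping candidate passed in replicate 1 for 148 regions, in replicate 2 for 160 and in both for 140 (78.2%, exact 95% interval 71.4% to 84.0%). The corresponding share was 54.8% (51.3% to 58.2%) in the conservative peaks of at least 80 and 0.907% over all ranked candidates. The 179 were chosen on signal value and on passing the series-wide IDR, and the replicates' own lists come from the same reads. These shares are therefore a description and not separate support for the regions. Intervals here and below cover counting error over regions only, and neighbouring regions are not independent.

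The ranks of the members that passed were close in both replicates. These members had passed the IDR, which itself measures agreement in rank, so their ranks are a description. Their median rank was 232 in replicate 1 (n = 175) and 241.5 in replicate 2 (n = 178). Across the 174 regions with a candidate in both lists, Spearman's rho of the replicates' signal values was 0.917 and Pearson's r of their log2 values 0.942, against 0.723 and 0.811 over 814 conservative peaks. These are correlations across regions, which share libraries and, for many, the repeat unit, and the wider range of signal among the members enters them. At the top the order was nearly the same. The strongest member, near Y7A5A.7, held rank 1 in both replicates, with own signal values of 2132.0 in replicate 1 and 2773.9 in replicate 2, and the second, near Y102F5A.1, rank 2 in both. The member at chrX:293332-293516 near R57.2 held rank 4 in replicate 1 and rank 3 in replicate 2, and that at chrX:110400-110592, upstream of the potassium channel gene elk-2, rank 3 and rank 4. Signal scales differ between the lists, so ranks and not levels are set side by side. The other 16 of the 20 strongest members ranked between 5 and 26 in replicate 1 and between 5 and 22 in replicate 2. Also among the 20 were members near fbxa-55 (1147.0), C24H10.4 (1047.4) and nas-30, an astacin protease gene (912.7). Few members that passed were missing from a ranked list. The member at chrIV:8579615-8579692 near catp-7 (signal value 233.5) had no candidate in replicate 2, and 4 had none in replicate 1.

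The 48 members that did not pass stood far apart in the replicates. They were selected on a high IDR, which itself measures such a difference, so their ranks are a description. Of the 41 with a candidate in both lists, 38 ranked higher in replicate 2 and 3 in replicate 1. Their median rank was 4543 in replicate 1 (n = 42) and 743 in replicate 2 (n = 47), and rho was -0.438 over the 41. The 3 largest differences with replicate 2 higher were at chrX:4028629-4028884 near acr-10 (rank 38420 in replicate 1 and 589 in replicate 2), at chrIII:7940896-7941151, 127 bp upstream of C29E4.12 (23001 and 555), and at chrV:10611735-10611990 near H09F14.1 (22220 and 743). The first and the last of these lie in tandem arrays. With replicate 1 higher, the largest were at chrI:10462621-10462876 near Y106G6H.9 (162 and 4714), near gld-4, a cytoplasmic poly(A) polymerase gene (636 and 4813), and 141 bp upstream of dph-2, a diphthamide synthesis gene (565 and 4036). A thresholded peak of replicate 2 alone covered 30 of the 48 (62.5%), one of replicate 1 alone 4 (8.33%), peaks of both 0, and 14 had neither (29.2%). In the same order, the conservative peaks of at least 80 had 26.97%, 5.83%, 54.8% and 12.4%. Over all ranked candidates the shares were 0.541%, 0.136%, 0.687% and 98.6%. The other series-wide list held 37 of the 48 with identical coordinates (77.1%), against 95.6% of those conservative peaks and 1.56% of all ranked candidates.

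**Figure D2:**
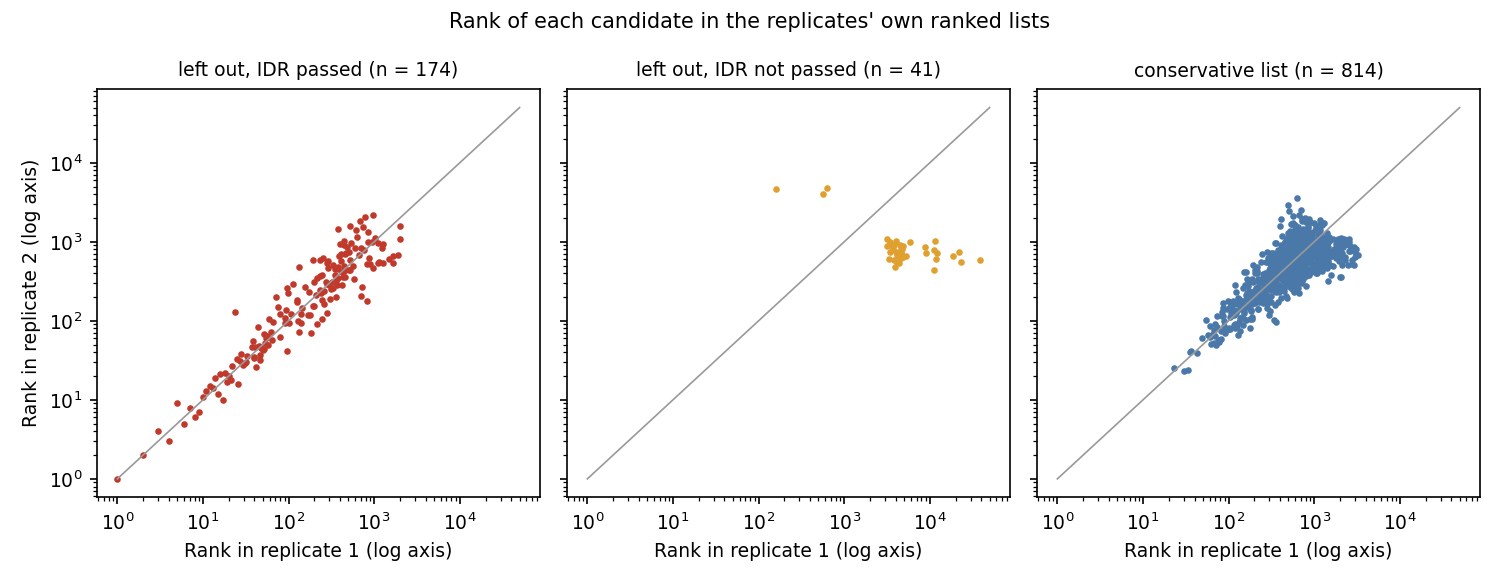
Rank in replicate 1 (horizontal) against rank in replicate 2 (vertical), both on log axes, for candidates of signal value 80 or more with a candidate in both lists. Panels show the left-out regions that passed (n = 174), the left-out regions that did not pass (n = 41) and the conservative peaks (n = 814), with the line of equal rank in grey. Points of the first panel follow the line from rank 1 on, while 38 of the 41 points of the second lie below it.

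The members lay close together along the chromosomes. Joined at 10 kb from summit to summit, the 227 formed 115 clusters, of which 47 held at least 2 members and 28 at least 3. These 47 clusters took in 159 of the 227 members, and the other 68 members stood alone. Among the 179 that passed, 151 (84.4%) had another passing member within 10 kb, and among the 48 that did not pass, 6 were in a cluster. Of the conservative peaks of at least 80, 200 of 823 (24.3%) had another such peak within that distance. The 47 clusters spanned 626 to 9317 bp with a median of 2036 bp, and no span held a conservative peak. Members were spread over all 6 chromosomes, with 36 on I, 34 on II, 39 on III, 31 on IV, 43 on V and 44 on X. Their share on X was 19.4%, against 20.5% of the conservative peaks of at least 80.

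The largest cluster held 10 members over 7026 bp at chrI:10946035-10953060, with a highest signal value of 960.1 near Y95D11A.1. The cluster with the highest value among those of at least 3 lay at chrX:11785716-11789499. Its 5 members, in order along the chromosome, had signal values of 3358.2, 622.1, 107.7, 689.4 and 283.7, so 1 summit stood far above its neighbours. Near the C-type lectin gene clec-9 at chrV:16707479-16709129, 4 members had 467.1, 519.2, 1314.6 and 1067.8, with a pair of similar height side by side. At chrIII:1299892-1302694, between the F-box genes fbxa-28 and fbxa-75, 5 members had 1285.0, 559.5, 81.5, 477.6 and 283.7. Near ddl-3 at chrII:14337723-14339127, the 4 values were 1161.4, 180.9, 289.0 and 119.3. The strongest member exceeded the weakest by the most in the first of these 4 clusters. Further clusters of at least 3 with a member above 400 lay near elk-2 (1510.3), Y54G2A.48 (1307.2), Y73F4A.1 (1164.0), Y49G5A.1 (1153.2), Y32H12A.1 (1062.3), the aldehyde dehydrogenase gene alh-12 (892.9), the ligand-gated channel gene lgc-26 (744.8), the hexosaminidase gene hex-5 (702.6), ttr-17 (673.7), Y119C1B.3 (600.7), the ABC transporter gene haf-7 (440.9) and Y57G11C.8 (415.6). The remaining clusters of at least 3 were weaker, with their highest values near nlp-55 (389.2), Y49A10A.2 (325.4), clec-175 (297.2), sre-47 (268.8), Y61B8B.3 (260.7), Y106G6E.4 (229.5), H09F14.1 (217.7), F58A6.1 (193.0), Y81B9A.2 (165.0), ZK380.2 (143.2) and pot-3 (104.9).

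**Figure D3:**
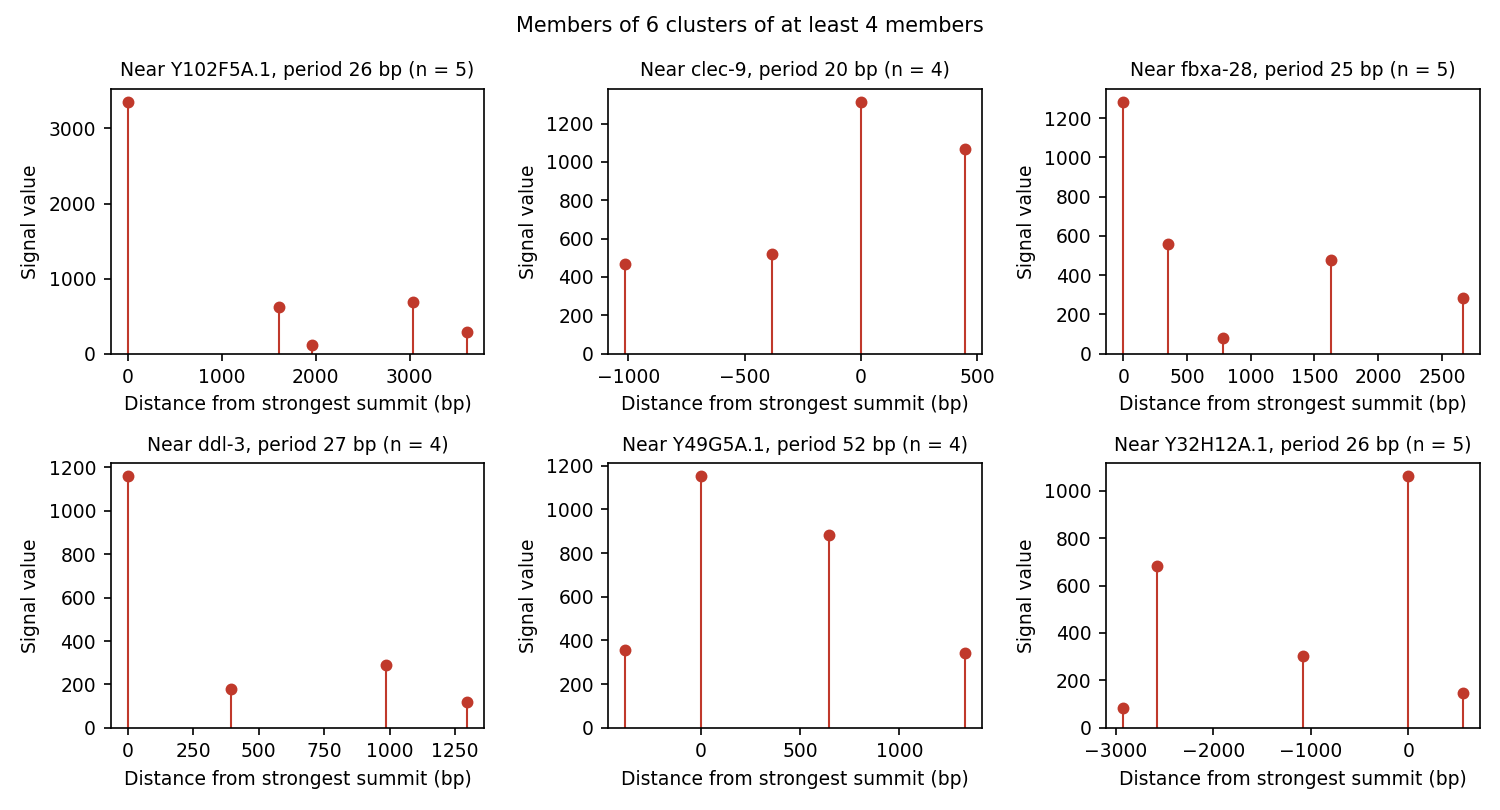
Signal value of each member (vertical, each panel on its own linear scale from 0) against the distance of its summit from the strongest summit of the cluster in bp, for the 6 clusters of at least 4 members with the highest values. Titles give the nearest protein-coding gene, the period of the array at the strongest summit and the number of members. In the cluster near Y102F5A.1 the strongest member (3358.2) stands above 4 others of at most 689.4.

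Nearly all members that passed lay in sequence that the genome holds more than once. A region was called repeated when at least 50% of its bases fell in words of 36 bases found again elsewhere on either strand. This held for 176 of the 179 (98.3%, exact 95% interval 95.2% to 99.7%), for 14 of the 48 that did not pass (29.2%, 16.95% to 44.1%), for 156 of the 823 conservative peaks of at least 80 (18.96%, 16.3% to 21.8%) and for 7.86% of all ranked candidates. Of the genome's own bases, 11.7% lie in such words. The median word of a passing member had 11 copies in the genome, and the median of the 48 was 1 copy. The highest median was 299 copies. The 48 held 29 regions with no repeated base at all, and the 179 held 0.

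The repeats were tandem. A region counted as a tandem array when at least 10% of the 10-base words within 500 bp of its summit recurred at one fixed distance, the period. By this measure, which was added after the values had been seen, 174 of the 179 (97.2%, 93.6% to 99.1%), 9 of the 48 (18.8%, 8.95% to 32.6%), 34 of the 823 conservative peaks (4.13%, 2.88% to 5.73%) and 2.50% of all ranked candidates were tandem. Among the 208 candidates of at least 80 that passed the IDR and were tandem, 174 were left out (83.7%) and 34 were listed. Among the 794 that passed and were not tandem by this measure, 5 were left out (0.630%) and 789 were listed. The left-out tandem regions had a median signal value of 214.7 (80.5 to 4689.8) and the listed ones of 117.2 (80.6 to 423.8), so their ranges overlapped at the low end. The median share of recurring words was 41.5% in left-out and 38.6% in listed tandem regions, and the median number of word copies 11 and 10.5. The 5 left-out regions that this measure did not call tandem lay in 2 places. At chrIII:13779505-13782856 around pot-3 stood 3 of them, with signal values of 97.7, 104.9 and 104.7. At chrV:17122134-17123209 stood the other 2, with 336.8 and 141.6, and the weaker one has its summit within 100 bp of rrn-4.2, a 5S ribosomal RNA gene. The commonest distance between recurring words was 980 bp at the first and 976 bp at the second of this pair, close to the whole width of the window searched. At such distances too few words fit in the window to reach 10%. The measure therefore could not tell whether these 2 regions lie in a tandem array of long units.

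**Figure D4:**
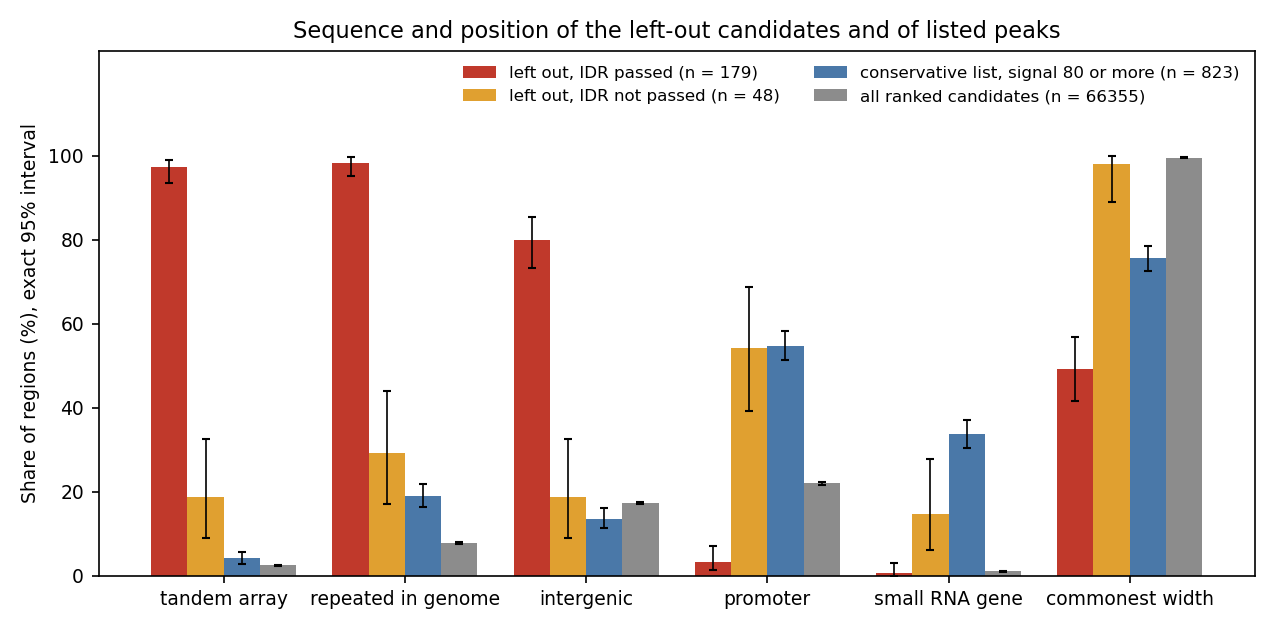
Share of regions in percent with exact 95% binomial intervals, for tandem arrays, repeated sequence, intergenic and promoter summits, summits within 100 bp of a small RNA gene and the commonest region width (256 bp). Bars show the left-out regions that passed (red, n = 179), the left-out regions that did not pass (yellow, n = 48), conservative peaks of at least 80 (blue, n = 823) and all ranked candidates (grey, n = 66355). Red bars reach 97.2% for tandem arrays and 98.3% for repeated sequence, while the yellow and blue bars stand together at promoters (54.2% and 54.8%).

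The periods covered many sizes, with 1 class well ahead of the others. A period of 24 to 28 bp was found in 87 of the 179 members that passed (48.6%), against 12 of the 823 conservative peaks (1.46%) and 0.342% of all ranked candidates. Counted over tandem regions only, it was 87 of 174 left out that passed and 12 of 34 listed, so it was the commonest class in both. Periods of 19 or 20 bp were found in 15 of the 179 (8.38%), of 59 bp in 7 (3.91%) and of 100 bp or more in 18 (10.1%). Over all ranked candidates the shares were 0.169%, 0.0422% and 0.669% in that order. Clusters that shared at least 5 words of 24 bases were joined into families, which are called by their commonest period and counted over the members that passed. Of these families, 9 reached more than 1 cluster, and 1 more did so only through the member at chrX:4028629-4028884 that did not pass. The 27-bp family was the largest by members, with 47 in 14 clusters on all 6 chromosomes, a highest signal value of 1510.3 and a median of 239.6. Only 31 of the 47 had a period of 27 bp, while 11 had 32 bp, among them the largest cluster near Y95D11A.1, 3 had 26 bp, 1 had 25 bp and 1 had 49 bp. The 25-bp family had 25 members in 7 clusters on 4 chromosomes, with a highest value of 1285.0 in the array beside fbxa-28. The 26-bp family with AGGTGAATGG had 20 members in 6 clusters, and that with TGGTGAACGG 7 in 3 clusters with a median of 880.3. The 20-bp family had 15 members in 7 clusters, 10 with a period of 20 bp, among them those near clec-9 and sre-47. Smaller ones were the 172-bp family with 9 members in 3 clusters (6 in 2 clusters were arrays of 172 bp, and the other 3 were the regions around pot-3 not called tandem), a family with periods of 39 and 9 bp with 8 in 3, the 59-bp family with 6 in 5, the 45-bp family with 5 in 3 and the 79-bp family with 6 in a single cluster near nlp-55, a neuropeptide-like gene. Signal values spanned a wide range within families, from 148.6 to 4689.8 in the 26-bp family with TGGTGAACGG and from 80.7 to 1596.5 in the 172-bp family.

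**Figure D5:**
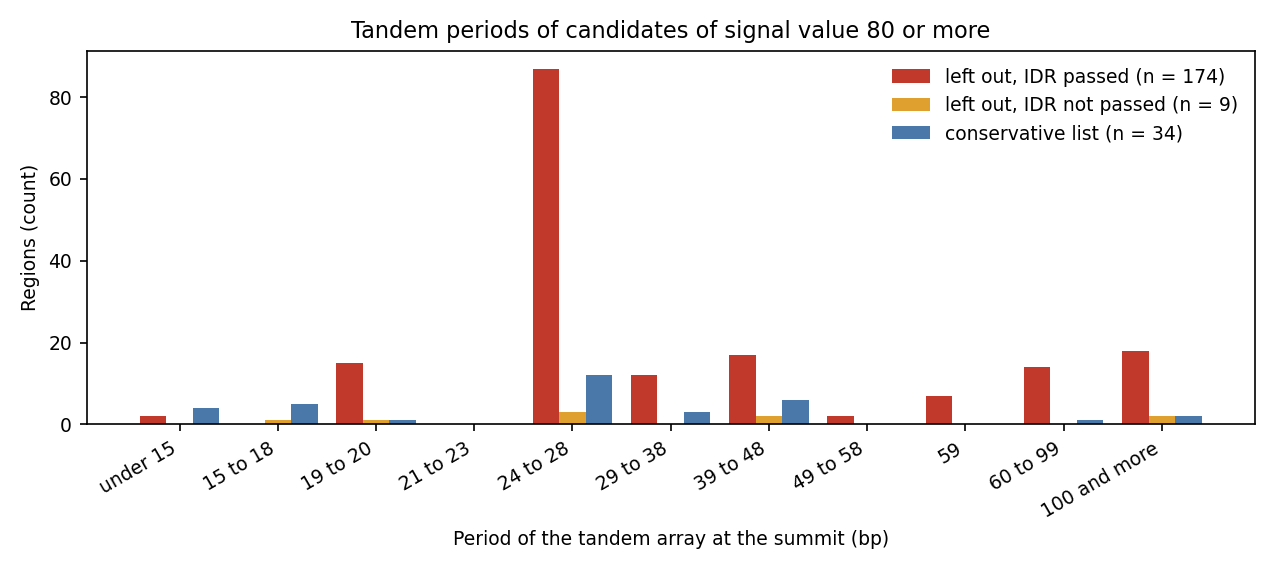
Count of tandem regions (vertical) by class of period in bp (horizontal, classes of unequal width) among candidates of signal value 80 or more. Bars show the left-out regions that passed (red, n = 174), the left-out regions that did not pass (yellow, n = 9) and the conservative peaks (blue, n = 34), and the class of 24 to 28 bp holds 87, 3 and 12 of them.

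Most members that passed lay between genes. In the classes used, 143 of the 179 were intergenic (79.9%, 73.3% to 85.5%), 25 lay within 1000 bp past a gene end, 6 in promoters (3.35%, 1.24% to 7.15%), 3 in coding exons and 2 in introns. Promoters were taken to begin 1000 bp before the start of a protein-coding gene and to end 200 bp after it. Of the conservative peaks of at least 80, 13.6% (11.3% to 16.1%) were intergenic and 54.8% (51.3% to 58.2%) in promoters, and over all ranked candidates the shares were 17.4% and 21.98%. A protein-coding start stood within 5000 bp for 139 of the 179 (77.65%), but within 500 bp for 2 only (1.12%), those at sre-47 and Y80D4G.2. Within 5000 bp the share was 91.6% in the conservative peaks of at least 80 and 84.9% over all ranked candidates. Within 500 bp these shares were 48.97% and 19.6%. The member at Y80D4G.2, chrIII:7594756-7595077, was the fifth strongest of all with 1406.6, and its summit lay 311 bp upstream of the start. The 3 in coding exons were in ZC247.1, Y8A9A.2 and H03A11.2, with signal values of 111.4, 112.4 and 148.3, and the arrays there had periods of 231, 96 and 108 bp, each a multiple of 3. The 2 in introns were both in str-222, a chemoreceptor gene, with 119.4 and 139.1 and a period of 48 bp. These 5 were low next to the median of the members that passed.

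Promoters held 26 of the 48 members that did not pass (54.2%, 39.2% to 68.6%), a share close to that of the conservative peaks above. Of the 48, 25 had a start within 500 bp, 9 were intergenic (18.8%) and 7 intronic (14.6%). Over all ranked candidates 21.98% lay in promoters, 19.6% had a start within 500 bp, 17.4% were intergenic and 31.1% intronic, so the intergenic share of the 48 was near that of all candidates. By signal value the first was chrI:10462621-10462876 with 127.0, and the next were chrX:806521-806776 near gtr-1 with 112.1 and chrV:9318042-9318297 at a transfer RNA gene and 141 bp upstream of the potassium channel gene kvs-3 with 108.0. Among the promoters were those of fib-1, the fibrillarin gene (96.97), of eif-3.E, a translation initiation factor subunit (96.2), of snr-4, a spliceosomal protein gene that lies beside an snRNA gene (94.1), of cyc-1, a cytochrome subunit (90.5), of the nucleoporin genes npp-25 (87.9) and npp-19 (80.4), and of nduf-11, a respiratory complex subunit (81.5). These genes were picked after their values were seen, as examples of the promoters. Small RNA genes stood within 100 bp of 7 of the 48 (14.6%, 6.07% to 27.8%), 5 of them transfer RNA genes. They stood within that distance of 1 of the 179, the 5S gene above, and of 277 conservative peaks of at least 80 (33.7%) and 1.06% of all ranked candidates. The highest IDR values of all members were at chrX:4028629-4028884 (0.813), near C29E4.12 (0.798), near H09F14.1 (0.791), near Y61B8B.3 (0.776) and at chrX:806521-806776 (0.543).

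Of 12 gene lists, members had their nearest start within 5000 bp in only 2. The chemoreceptor list, genes with symbols in sr, counted 6 members, 5 of them around sre-47 on chromosome II with signal values of 83.4 to 268.8 and 1 near srj-9 with 92.6. That is 2.64% of the members, against 1.34% of the conservative peaks of at least 80 (11 peaks) and 2.53% of all ranked candidates, so the share of the members was near that of all candidates. The list holds no symbols in str, and the 2 members in str-222 are not counted in it. The F-box list counted 8 members, 5 of them at fbxa-28 and fbxa-75, 1 near fbxa-55 with 1147.0 and 2 near fbxa-221 with 135.9 and 745.9. That is 3.52% of the members, against 0.243% of the conservative peaks of at least 80 (2 peaks) and 0.972% of all ranked candidates, and the 8 members come from few clusters. All 14 had passed. The lists of T-box, Notch and REF-1, pharynx fate, ASE asymmetry, Wnt asymmetry, ribosomal protein, histone, nuclear hormone receptor, homeobox and collagen genes counted 0 members each, against 0, 2, 1, 2, 0, 13, 7, 6, 2 and 5 conservative peaks of at least 80 in that order. Over all ranked candidates the shares of these lists were also low, from 0.0844% (Notch and REF-1) to 1.23% (nuclear hormone receptor). Nothing is therefore read from the counts of 0. No member lay within 5000 bp of tbx-37, tbx-38 or lsy-6. The nearest was 131160 bp from tbx-37, 690434 bp from tbx-38 and 35369 bp from lsy-6, which for lsy-6 is the member near H09F14.1 that did not pass, with 83.5.

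The searched motifs were rare at the members that passed. Within 100 bp of the summit and on both strands, the T-box site AGGTGTGA was found at 0 of the 179, 0 of the 48, 3 of the 823 conservative peaks of at least 80 and 0.526% of all ranked candidates. Its core GGTGTG, which those 3 also hold, was found at 1 of 179 (0.559%), 5 of 48 (10.4%) and 56 of 823 (6.80%), and at 6.04% of all ranked candidates. GAGAGA was found at 9 of 179 (5.03%), 5 of 48 (10.4%) and 199 of 823 (24.2%), and at 12.8% of all ranked candidates. GGGCGG was found at 0 of 179, 7 of 48 (14.6%) and 106 of 823 (12.9%), and at 5.13% of all ranked candidates. The median GC content was 38.3% in the 179, 40.2% in the 48 and 44.1% in the conservative peaks. GGTGAA, the word of the printed units, was counted after it had been seen there, and it was found within 100 bp of 47 of the 179 summits (26.3%), 4 of the 48 (8.33%), 64 of the 823 (7.78%) and 8.86% of all ranked candidates. The word agagagtaaa was found in 57 of the 179 regions (31.8%) from 19 clusters on 6 chromosomes, in 2 of the 48, in 10 of the 823 (1.22%) and in 0.259% of all ranked candidates. Members of one family share their unit, so these are counts over related sequences. No match says only that the letters are not in the window.

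Regions also differed in width. The authors' lists give most candidates a width of 256 bp, which held for 88 of the 179 (49.2%), 47 of the 48 and 622 of the 823 conservative peaks (75.6%). Another 88 of the 179 were narrower, and the narrowest had 64 bp. Just inside the signal threshold stood the members near gld-4 (80.07), C55A6.10 (80.10) and mab-20, a semaphorin gene (80.37), none of which passed the IDR. Just outside stood candidates near the histone gene his-68 (79.95), ZC13.1 (79.72) and ZK218.11 (79.28), of which the last had passed with an IDR of 0.00146.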

How the data were processed

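The lists hold regions called from anti-GFP precipitation of tagged TBX-37 in 1 group of whole early embryos with 2 biological replicates. Per the labels the build is ce11. The authors' aligner and caller are not named in the labels or headers read here. The signal value is what the authors' peak caller wrote for each region, and its scale differs between lists. The score that the authors deposited restates the IDR, with 1000 as its highest value. IDR values were computed from the −log10 column that the authors put in each ranked list. The summit offset that the authors deposited gave the position. Another 8 per-sample columns carry no name that ties them to a replicate, so they were left aside. Without read counts, depth is unknown.

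Members are the regions of at least 80 in the ranked list of 66355 whose coordinates are not in the conservative list of 1107 peaks. An IDR passed at a score of at least 830, the lowest of that list. Other lists held 39578 ranked and 538 thresholded regions for replicate 1, 44219 and 817 for replicate 2, and 41925 and 1042 for the other series-wide lists. Lists were compared by overlap of at least 1 bp. Sequence was read from RefSeq WBcel235 and genes from Ensembl release 115, and summits were assigned to the nearest of 19973 protein-coding starts. Analyses used Python 3.11.15, NumPy 2.4.6, pandas 2.3.3, SciPy 1.17.1 and Matplotlib 3.10.9. The repeat measures were tested on simulated data.

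No test was run, because there is 1 group of 2 samples and regions are not replicates. Shares have exact (Clopper-Pearson) 95% binomial intervals. Members and lists were chosen with earlier results of these data known. Tandem arrays, families and the words GGTGAA and AGAGAGTAAA were added after the values were seen. Named members are the 20 strongest, the strongest of each cluster of at least 3, the 5 lowest and 5 highest IDR values (ties by signal value), the 3 largest rank differences each way, those at the signal threshold and the 2 strongest of each gene list. Others named as examples, and all 5 not called tandem or within genes, were picked after their values were seen.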

Additional observations from a re-analysis of the deposited data

How the results depend on the processing

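The number of members was 227, and it was 368 at a signal value of 70 and 164 at 100. It stayed 227 when any overlap with a conservative peak counted as listed. The rule applied to a single replicate's own lists, with the same number of top-ranked candidates, gave 303 without replicate 1 and 517 without replicate 2. The thresholded list holds 817 peaks for replicate 2 and 538 for replicate 1, fewer than the 1050 candidates taken. Most of both counts is thus fixed by the length of the list, and they do not compare the replicates. Members overlapping a thresholded peak numbered 0 for both replicates, 30 without replicate 1 and 4 without replicate 2, all among those that did not pass. With promoters from 2000 bp upstream, 59 members counted in place of 32. GGTGTG stood within 100 bp of 6 members, within 50 bp of 3 and within 200 bp of 10, and GGGCGG within 100 bp of 7, within 50 bp of 4 and within 200 bp of 11. The other alternatives for IDR, overlap, cluster distance, repeats and small RNA genes, and those added after seeing the data for tandem arrays and families, stayed within 1.5 times the reported counts. No paired analysis was possible because there is 1 group. The unknown depth limits every statement on how firmly a single region is supported.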
